A study of Mus musculus with 3 samples.

Results

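Integrin and laminin subunit genes were followed in RNA that came down with Flag-tagged FTO from mouse white fat. The group holds every row of the count table whose symbol begins with Itga or Itgb, or with Lama, Lamb or Lamc and a digit, apart from Itgb2l, Itgbl1 and the integrin-binding proteins Itgb1bp and Itgb3bp. That gives 37 genes of 39179 in the table, 26 integrin and 11 laminin subunits, chosen by name and not by any measured value. All 37 passed the filter on low counts, which kept 17587 genes. Every library came from C57BL/6 mice that carried a Flag-FTO transgene, were 16 weeks old and had been fasted overnight. The antibody was anti-Flag M2 in 2 libraries, Flag-IP 1 and Flag-IP 2, and IgG in the single library IgG-IP. No animals without the transgene were included, and which promoter drives it is not stated in the labels. Nothing in the labels ties a library to an animal, so p-values measure only the spread between the Flag-IP libraries, which may be technical, and that of IgG-IP is assumed to be the same.

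Laminins are large cross-shaped proteins of the basement membrane, each built from an alpha, a beta and a gamma chain. Integrins are cell surface receptors made of an alpha and a beta chain that tie the basement membrane and other matrix to the cytoskeleton. In white fat each adipocyte sits in its own basement membrane, and capillaries and resident leukocytes bring further integrins. FTO removes methyl groups from adenosines in RNA, and the IgG pull-down shows how much RNA is recovered without the Flag tag being bound.

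The libraries held between 74176962 and 98227791 counts, of which 28 genes took 97.0% to 97.6%. The 37 subunit genes together had 3610 and 3727 counts in the Flag pull-downs and 3952 in the IgG pull-down. Single members ranged from 4 to 685 counts in a library, and 22 of them had a mean of at least 50. White adipocyte markers were present but weakly counted: the 10 on the list ranged from 3 to 152 counts, and Adipoq, which encodes adiponectin, had 18, 14 and 3 counts. Every triplet of counts here is ordered as Flag-IP 1, then Flag-IP 2, then IgG-IP. Of the 9 tested, Plin1, a lipid droplet coat protein, was called higher (34, 59 and 12 counts). That is 11.1%, against 5.58% of all genes tested. Log2 fold changes were above 0 for 7, as for 9023 of all 17587 genes tested, and the median was 1.06 against 0.03. The 2 below 0 were the best counted of the list and did not pass. They were Cidec (117, 93 and 152 counts, -0.40 on the log2 scale) and Pparg (68, 117 and 148 counts, -0.55). Levels between genes are compared as CPM per kb of exon, where CPM is counts scaled by the effective library size. On that scale the 9 adipocyte markers tested lay between 0.0201 and 0.869 in IgG-IP and the subunit genes between 0.00778 and 0.426.

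The subunit genes divided between the pull-downs and did not move as a block. Itga11, Lamc3 and Lama5 were higher after Flag pull-down than after IgG pull-down, and Lama2, Itga1, Itgav and Itgb8 were lower, by edgeR's quasi-likelihood test at an adjusted p under 0.05 over all 17587 genes. The changes were modest, from 0.405-fold for Itgb8 to 2.05-fold for Itga11. Of the members 8.11% were called higher and 10.8% lower, against 5.58% and 5.77% of all genes tested. Members have more counts than most genes. In a fit limited to the 4979 genes that averaged 50 counts or more, 15.5% were called higher and 15.7% lower, and of the 22 members there 4 were called higher and 3 lower. The members' shares thus lie near those of other genes at this depth. The median log2 fold change was 0.10 over the members and 0.03 over all genes tested. When libraries were scaled by their total counts alone, edgeR called 0 members higher and 7 lower, with all genes shifted by a median of -0.52. That scaling called 1.94% of all genes higher and 17.1% lower. DESeq2 gave an adjusted p for 7 members and called 0 of them, with 0.745% of all genes called higher and 0.824% lower. Of the genes called by edgeR, only Lama2 and Lama5 were among them. Itga11, Lamc3, Itga1, Itgav and Itgb8 had no adjusted p in DESeq2. Over the 37 members 0 were higher and 1 lower at an unadjusted p under 0.05 in DESeq2. A likelihood ratio test with 1 common dispersion for all genes kept 1 of the 7 calls of the quasi-likelihood test, that of Itgb8.

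Both Flag-IP libraries lay above IgG-IP in normalized counts for 19 members (background 40.5% of all genes tested) and below it for 12 (background 39%). The other 6, Itga7, Itgam, Itgax, Itgb7, Lama3 and Lamc1, had the IgG-IP value between the Flag-IP values. Over the 22 better counted members log2 differences from Flag-IP 1 to Flag-IP 2 had an SD of 0.28, while those from IgG-IP to Flag-IP 1 and to Flag-IP 2 had SDs of 0.58 and 0.60. The Flag-IP libraries thus resembled each other more than either resembled the IgG-IP library.

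**Figure D1:**
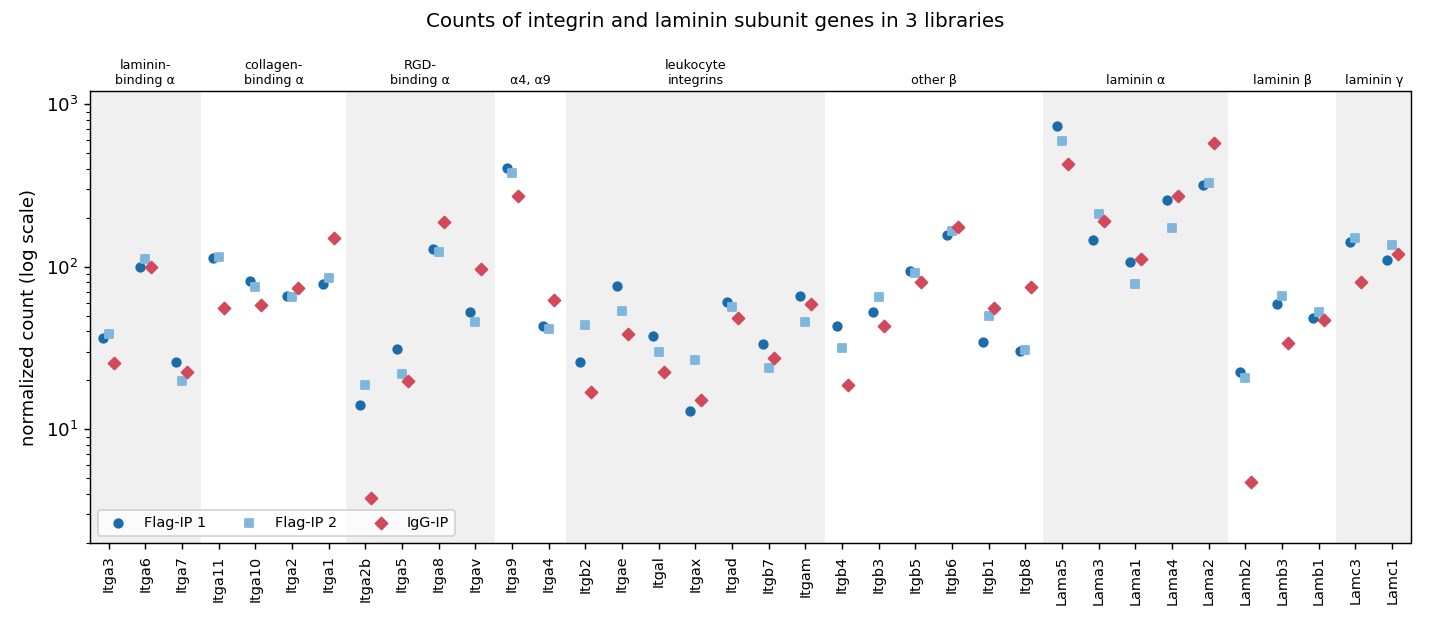
Normalized counts (log scale) of 36 subunit genes, 1 point per library, arranged by role and within a role by fold change. Lama5 has the highest Flag-IP points and Lama2 the highest IgG-IP point, and the IgG-IP points of Itga2b and Lamb2 stand far below their Flag-IP points at only 4 and 5 raw counts.

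The laminin alpha chains carry the domains that cells bind, and they were the best counted group. Lama5, the alpha chain of adult vascular and epithelial basement membranes (GRCm38, chromosome 2, 180176373 to 180225859), had 685, 600 and 457 counts. Both Flag-IP values, 738 and 594 normalized counts, stood above the 430 of IgG-IP. This is a log2 fold change of 0.63 ± 0.23 (SE; edgeR adjusted p = 0.0486). The 7 endothelial markers on the list, from vessels that make this chain, summed to 393, 457 and 462 counts. None passed, and 1 was higher and 1 lower at an unadjusted p under 0.05, for which no share over all genes is given. The Lama5 call is the least secure of the set, since RLE scaling alone moved it to an edgeR adjusted p = 0.0524.

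Lama2, the chain of muscle and nerve basement membranes whose loss causes congenital muscular dystrophy (chromosome 10, 26980036 to 27619758), went the other way with 297, 331 and 612 counts. Its Flag-IP values of 320 and 328 normalized counts were close to each other and well below the 576 of IgG-IP. This is a log2 fold change of -0.83 ± 0.21 (SE; edgeR adjusted p = 0.00293). Skeletal muscle markers moved the other way. The 5 on the list summed to 121, 71 and 27 counts, with Acta1 at 4, 4 and 0 and Mylpf at 8, 0 and 0. Only 3 were tested, at low counts, and 2 were higher, Ckm (23, 19 and 4) and Tnnt3 (39, 26 and 9). Of all genes tested 5.58% were called higher. The part of muscle in the values of Lama2 was not tested. Lama4, the alpha chain best known from adipocytes and capillaries, had 240, 175 and 288 counts and did not pass (-0.33 ± 0.23 on the log2 scale, edgeR adjusted p = 0.376). Flag-IP 1 was nearly level with IgG-IP for this gene, at -0.07 on the log2 scale, while Flag-IP 2 was at -0.64. The adipocyte markers tested had a median of 1.06, but the best counted of them, Cidec and Pparg, stood at -0.40 and -0.55. The part of these markers in the values of Lama4 was not tested. Lama1, mainly an embryonic chain, had 99, 79 and 119 counts, and Lama3, the chain of skin laminin, had 135, 213 and 203. Neither passed, and for Lama3 the Flag-IP values fell on opposite sides of IgG-IP.

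Lama5 and Lama2 are shown here because they are chains of the same kind, called in opposite directions, that differ in base composition. Each line gives 90 coding bases of GRCm38 (GENCODE), 5′ to 3′ on the minus strand, with every G and C in capitals. The windows were picked for having the GC content nearest that of the whole coding sequence, which was 60.2% for Lama5 and 48.1% for Lama2, so they illustrate that difference and do not test it. Single windows vary widely, from 44.4% to 80.0% in Lama5 and from 33.3% to 67.8% in Lama2. The rule was settled after 2 others had been looked at: the middle of the longest coding exon gave 74.4% for Lama5 and 54.4% for Lama2, and the exon holding the middle coding base gave the opposite order, 58.9% and 63.3%. The Lama5 window is chr2:180221289-180221378 in exon 2 and has 54 G or C bases, and the Lama2 window is chr10:27467279-27467368 in exon 2 and has 43.
Lama5: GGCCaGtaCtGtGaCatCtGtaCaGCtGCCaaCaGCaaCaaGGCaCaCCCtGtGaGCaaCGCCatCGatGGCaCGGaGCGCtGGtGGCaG
Lama2: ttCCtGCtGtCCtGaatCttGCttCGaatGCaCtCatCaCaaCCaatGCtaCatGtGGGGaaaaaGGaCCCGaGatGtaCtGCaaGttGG

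Among the 3 laminin beta chains no gene passed edgeR's test, and 2 were higher at an unadjusted p under 0.05. At that p 10 of all 37 members were higher and 5 lower. No share over all genes is given for these counts, so they are not read as a result. Lamb2, the beta chain of the neuromuscular junction and the kidney filter, had 21, 21 and 5 counts. The 2 Flag-IP libraries were equal in raw counts, and the log2 fold change was the largest of all members, 2.17 ± 0.80 (SE), but with 5 counts in IgG-IP the edgeR adjusted p was 0.0563. Lamb3, a subunit of skin laminin, had 55, 67 and 36 counts (0.89 ± 0.38 on the log2 scale, edgeR adjusted p = 0.113). It overlaps Hsd11b1 on the other strand, which had 119, 110 and 111 counts. On the same strand it overlaps 4930570N18Rik, which had 44, 47 and 53, so reads may have been divided among these genes. Lamb1, the most widespread beta chain, had 45, 53 and 50 counts, and its log2 fold change had a 95% interval from -0.63 to 0.83.

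Of the gamma chains, Lamc3 was higher. This chain, known from retina, brain surface and testis (chromosome 2, 31887291 to 31946539), had 132, 152 and 85 counts, which are 142, 151 and 80.1 normalized counts. Flag-IP 1 and Flag-IP 2 were both above IgG-IP, a log2 fold change of 0.87 ± 0.28 (SE; edgeR adjusted p = 0.0231). Lamc1, the gamma chain of nearly all laminins, had 102, 137 and 128 counts and a 95% interval from -0.49 to 0.55 around 0.03 on the log2 scale. For Lamb1 and Lamc1, the chains that join most laminins, changes within these intervals cannot be told from no change.

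None of the 3 laminin-binding integrin alpha chains passed edgeR's test, and 0 did at an unadjusted p under 0.05. Itga6, the alpha chain of the main laminin receptor of endothelium and epithelium, had 93, 112 and 106 counts and a log2 fold change of 0.08, with a 95% interval from -0.47 to 0.63. Itga7, the laminin receptor of muscle, had 24, 20 and 24 counts. Its interval, from -1.05 to 1.07, holds a change of 2-fold in either direction. Itga3 had 34, 39 and 27 counts. Itgb1, the beta chain that all 3 of them pair with, had 32, 50 and 59 counts. It lay below IgG-IP in both Flag-IP libraries but did not pass (-0.40 ± 0.37 on the log2 scale, edgeR adjusted p = 0.545).

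The collagen-binding alpha chains split. Itga11, the fibroblast receptor for fibrillar collagen (chromosome 9, 62677826 to 62783982), had 105, 116 and 59 counts. Its normalized counts were 113 and 115 after Flag pull-down against 55.6 in IgG-IP. The log2 fold change was 1.03 ± 0.31 (SE; edgeR adjusted p = 0.0141). Itga1, the receptor for basement membrane collagen (chromosome 13, 114953096 to 115101964), had 73, 86 and 160 counts. At 78.6 and 85.2 normalized counts against 151, its log2 fold change was -0.88 ± 0.27 (SE; edgeR adjusted p = 0.0174). For each of these genes the Flag-IP values nearly coincided, with IgG-IP apart from them on opposite sides. Itga2 of platelets and epithelium (61, 66 and 78 counts) and Itga10 of cartilage (76, 76 and 62 counts) did not pass. Pelo lies inside Itga1 and had 0, 4 and 0 counts.

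The coding sequences of Itga11 and Itga1, shown for the same reason and by the same rule, had a GC content of 55.7% and 46.1%. The Itga11 window is chr9:62732083-62732172 on the plus strand, in exon 5, with 50 G or C bases. The Itga1 window is chr13:115049304-115049393 on the minus strand, in exon 2, with 42.
Itga11: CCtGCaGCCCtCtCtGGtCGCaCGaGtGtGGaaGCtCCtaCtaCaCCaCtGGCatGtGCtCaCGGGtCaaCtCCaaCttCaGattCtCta
Itga1: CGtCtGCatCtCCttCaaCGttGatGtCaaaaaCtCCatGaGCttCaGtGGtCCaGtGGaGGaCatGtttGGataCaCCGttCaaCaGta

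Integrins of the RGD-binding group recognise a short motif in fibronectin, vitronectin and latent TGF-beta. Itgav, their most widely shared alpha chain (chromosome 2, 83724397 to 83806916), had 49, 46 and 103 counts. Its normalized counts were 52.8 and 45.6 after Flag pull-down and 97.0 after IgG pull-down. The log2 fold change was -0.98 ± 0.32 (SE; edgeR adjusted p = 0.0274). Itgb8, a beta chain that pairs with it to release active TGF-beta (chromosome 12, 119158022 to 119238802), was lower too, with 28, 31 and 80 counts. At 30.2 and 30.7 normalized counts against 75.4, its log2 fold change was -1.30 ± 0.37 (SE; edgeR adjusted p = 0.00775). In both genes the Flag-IP values were close together and IgG-IP stood apart above them. Gm13684 overlaps Itgav on the other strand and had 13, 7 and 29 counts.

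None of the other beta partners of Itgav passed the threshold. Itgb1, given above, lay below IgG-IP in both Flag-IP libraries at -0.40 on the log2 scale. Itgb3 had 49, 66 and 46 counts, Itgb5, which is abundant in adipose precursors, had 87, 93 and 86, and Itgb6 of epithelium had 145, 167 and 186. The log2 fold changes of Itgb3, Itgb5 and Itgb6 were 0.45, 0.20 and -0.12. The difference between these genes and Itgav or Itgb8 was not tested. Itga8 had 120, 125 and 200 counts and did not pass (-0.57 ± 0.25 on the log2 scale, edgeR adjusted p = 0.113), although both Flag-IP libraries were below IgG-IP. Itga5, the fibronectin receptor chain, had 29, 22 and 21 counts. Itga2b, the platelet fibrinogen receptor chain, had 13, 19 and 4 counts, and its log2 fold change of 2.09 ± 0.95 (SE) did not pass.

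Itga9 and Itga4 are related alpha chains that bind matrix and adhesion molecules on other cells. Itga9 had the most counts of any integrin, 375, 379 and 291, with both Flag-IP libraries above IgG-IP. Its log2 fold change of 0.51 ± 0.23 (SE) did not pass (edgeR adjusted p = 0.133). Itga4 had 40, 42 and 66 counts and did not pass. Cerkl overlaps Itga4 and had 69, 79 and 122 counts, more than Itga4 itself, so the counts of Itga4 are uncertain. Itgb4, the beta chain of hemidesmosomes, had 40, 32 and 20 counts and did not pass.

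None of the 7 leukocyte integrin genes passed edgeR's test, and 2 were higher at an unadjusted p under 0.05. At that p 10 of all 37 members were higher and 5 lower. No share over all genes is given for it, so it is not read as a result for the group. A log2 fold change above 0 was found for 6 of the 7 leukocyte genes, as for 9023 of the 17587 genes tested. Their median was 0.40 against 0.03. With the GC trend removed Itgad and Itgb7 were below 0 too, which left 4 of the 7 above 0. Itgb2, the shared beta chain of leukocyte integrins, had 24, 44 and 18 counts, and Itgae, which anchors T cells to epithelium, had 71, 54 and 41. Itgam and Itgax, alpha chains of macrophages and dendritic cells, had 61, 46 and 63 and 12, 27 and 16 counts. Itgal (35, 30 and 24), Itgad (56, 57 and 51) and Itgb7 (31, 24 and 29) completed the group. The pan-leukocyte marker Ptprc was lower in the Flag-IP libraries, with 168, 211 and 365 counts, and the 6 leukocyte markers tested, of which Itgam is 1, had a median of -0.04. In such bulk samples the number of cells of a type, the RNA per cell and what each antibody recovers cannot be told apart.

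**Figure D2:**
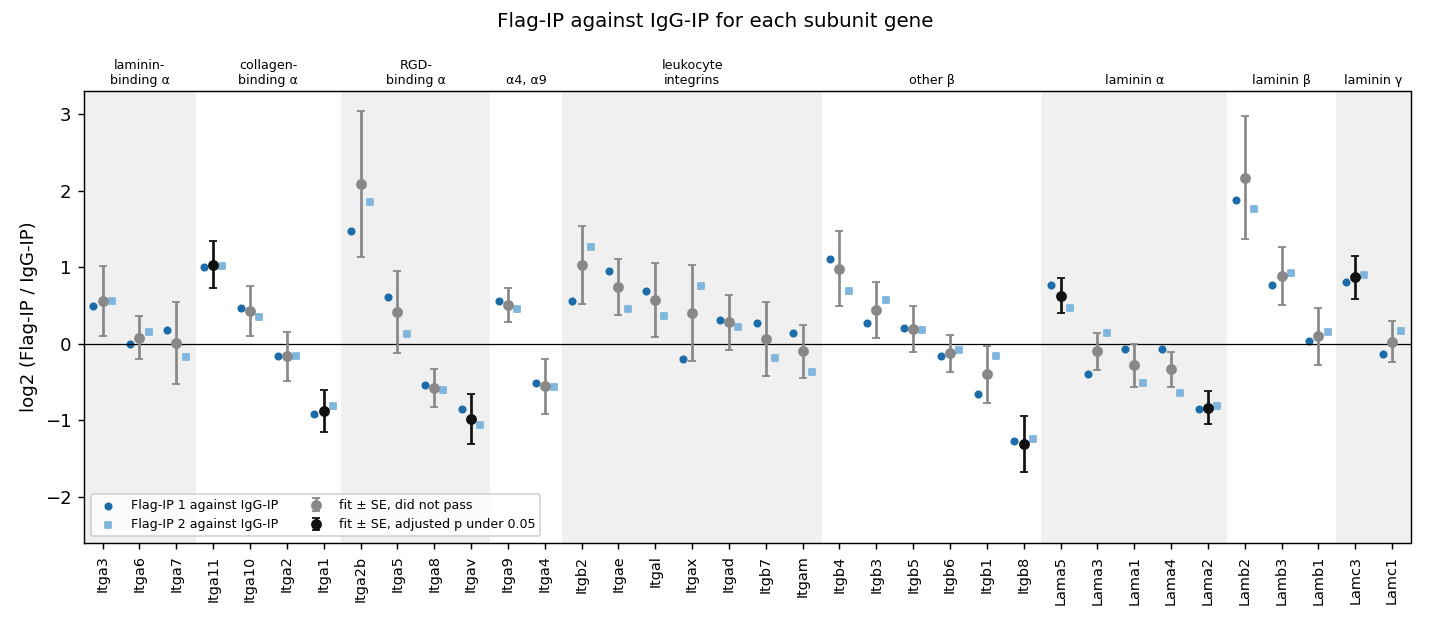
Log2 ratio of Flag-IP to IgG-IP for 36 subunit genes, by role: large points are the fit over both Flag-IP libraries with its SE, and small points are each Flag-IP library alone. Black points passed the test: Itga11, Lama5 and Lamc3 above 0, and Itga1, Itgav, Itgb8 and Lama2 below 0.

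Base composition moved with the comparison across the members. The GC content of the longest transcript was 55.5% to 59.9% in the 3 genes called higher and 40.4% to 47.7% in the 4 called lower, and the 30 members that did not pass covered 41.1% to 60.0%. Transcript GC and log2 fold change had a Spearman's rho of 0.76 over the 37 members, 0.74 over the 26 integrins and 0.79 over the 11 laminins, against 0.64 over 9050 other protein-coding genes that averaged 20 counts or more. All genes share the same 3 libraries, so these are descriptions across genes. The 10 members richest in GC all had log2 fold changes above 0, with a median of 0.60, and of the 10 poorest 9 were below 0, with a median of -0.56. Between the Flag-IP libraries rho with GC was 0.18.

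With a lowess trend on transcript GC over all tested genes removed, edgeR called 0 members higher and 1 lower. Calls fell over all genes too: of the 17409 in that fit 2.26% were higher and 2.02% lower. At an unadjusted p under 0.05 the members' counts were 0 and 4, for which no share over all genes is given. The called member was Lama2, at -0.77 on the log2 scale with an edgeR adjusted p = 0.0125. Itga11 then stood at 0.37 and Lamc3 at 0.04, Lama5 turned to -0.26, and Itgb8, Itgav and Itga1 stood at -0.69, -0.59 and -0.43, none of them past the threshold. Lama2 lost its call when a trend on gene span was removed instead (-0.42, edgeR adjusted p = 0.226). The SD of log2 fold changes over the members went from 0.75 to 0.51 with the GC trend removed. The part of GC content in these differences was not tested beyond this.

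**Figure D3:**
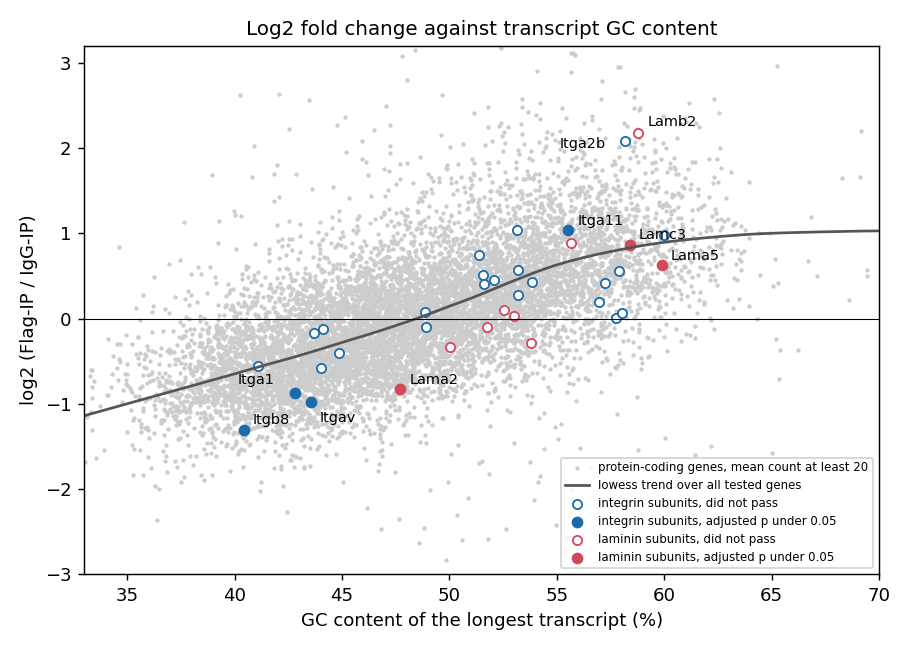
Log2 fold change against GC content of the longest transcript for 36 integrin and laminin subunits, over protein-coding genes averaging 20 counts or more (grey) and the lowess trend of all tested genes. The 3 genes called higher lie between 55.5% and 59.9% GC and the 4 called lower between 40.4% and 47.7%, while members that did not pass span 41.1% to 60.0%. Lama2 is the farthest below the trend of those called.

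How many counts a subunit gene had followed the length of its gene with introns included. Over the members Spearman's rho between span and IgG-IP count was 0.81, and between summed exon length and IgG-IP count 0.62. In the Flag-IP libraries the values were 0.74 and 0.77 for span and 0.41 and 0.38 for exon length. The IgG-IP library had a median of 0.934 counts per kb of span, and 31 of the 37 members (83.8%) lay within 2-fold of it. Over the 9050 other protein-coding genes the median was 0.942 and the share within 2-fold of it 86.6%. Lama2, the longest gene at 640 kb with 16.3 kb of exon, had the most IgG-IP counts and 0.957 counts per kb of span. Lama2 thus lay close to the median by span, whereas Lama5, at 49.5 kb, had 9.23 counts per kb and Itga10 had 3.27. How reads were assigned to genes is not stated in the labels, so it is not known how many of these reads lie in introns, and a contribution of unspliced RNA or DNA was not tested.

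**Figure D4:**
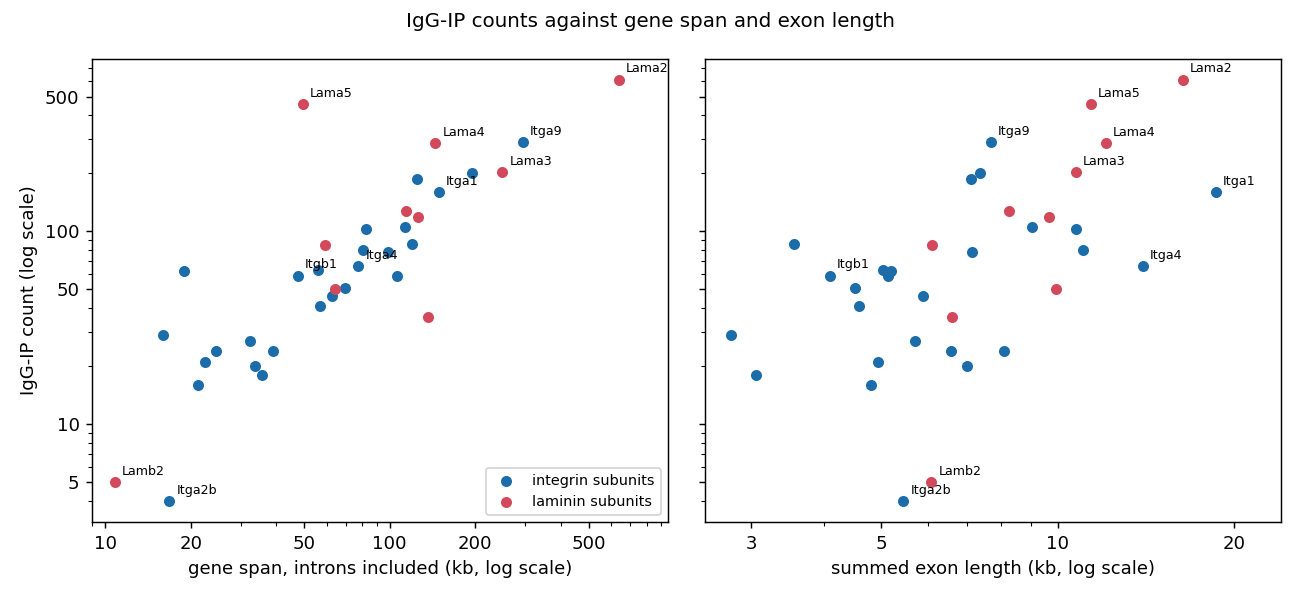
IgG-IP counts of 36 subunit genes against gene span (left) and summed exon length (right), all on log scales. Counts climb with span, from Lamb2 and Itga2b at 5 and 4 counts to Lama2 at 612, and Lama5 stands far above genes of its span.

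Per kb of exon, Lama5 had the highest level in each of the 3 libraries, with 0.729 and 0.587 CPM per kb after Flag pull-down and 0.426 after IgG pull-down, and Itga9 was second in each. In IgG-IP the next levels were those of Lama2 (0.397), Itga8 (0.288) and Itgb6 (0.277). Itgb1, the beta chain used by most cell types, was at 0.0951, 0.137 and 0.153. The lowest levels in IgG-IP were those of Lamb2 (0.00872) and Itga2b (0.00778), where few counts set the value. This order holds on the exon scale: per kb of span Lama5 was also first in IgG-IP, with 9.23 counts per kb, but Itga10 (3.27), Lama4 (1.99) and Itgb7 (1.82) came next, and Itga9 and Lama2 lay near the median at 0.989 and 0.957.

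The list of adhesion adaptors and signalling proteins, which holds kinases and membrane proteins as well as links to actin, had calls in both directions. Of 33 tested, 5 were higher (15.2%, against 5.58% of all genes tested), 3 were lower (9.09%, against 5.77%) and 25 did not pass. The median log2 fold change was 0.51, against 0.03 over all genes tested, and the median transcript GC was 53.1%, against 48.5%. Tln1, the talin that switches integrins on, had 55, 48 and 12 counts (2.22 ± 0.50 on the log2 scale), and the adaptors Parvg and Pxn and the kinase Src were also higher. Vcl, which encodes vinculin, was lower with 56, 68 and 122 counts (-0.85 ± 0.30). The transcript GC of Tln1 was 57.0% and that of Vcl 48.6%. Tns1, a tensin, had the most counts of the list, 7851, 6808 and 7183, and did not pass.

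Of 29 partners of laminin in the basement membrane and its non-integrin receptors, 2 were higher (6.9%, against 5.58% of all genes tested), 4 lower (13.8%, against 5.77%) and 23 did not pass, with a median of 0.27 against 0.03. Hspg2, which encodes perlecan, was higher with 128, 144 and 79 counts, as was Col15a1 with 159, 182 and 89. Dmd, which links the laminin receptor dystroglycan to actin, was lower with 604, 664 and 1338 counts, and so were Sgcd, Col4a6 and Lgals3. Transcript GC was 60.9% for Hspg2 and 56.4% for Col15a1. For Dmd, Sgcd, Col4a6 and Lgals3 it was 41.5%, 37.7%, 53.6% and 55.0%. Of 25 tested ligands of integrins other than laminins, Tnxb, a tenascin, was the only gene called, with 68, 73 and 28 counts (1.46 ± 0.39 on the log2 scale). That is 4% of the 25 tested, against 5.58% of all genes tested called higher. The median of the list was 0.21 against 0.03, and the transcript GC of Tnxb was 60.7%. Edil3 had the most counts of these ligands, 890, 1105 and 900, and did not pass.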

How the data were processed

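The authors deposited 1 table of raw counts per Ensembl gene with a column for each of the 3 libraries, matched to samples by the numbers in the labels. Per the submitters' processing notes, CASAVA 1.7, Bowtie 0.12.2 and genome build mm8 were used. Which program counted reads, on which annotation and with which strand setting, is not stated there. A deposited lipid gene list was not used. Positions, spans, exons and transcript GC come from GENCODE M21 (GRCm38), matched by identifier (37607 of 39179), and no position is in mm8.

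Genes were filtered with filterByExpr (minimum count 10) and scaled with TMM factors of 0.840, 0.936 and 1.27. Flag-IP was tested against IgG-IP with edgeR 4.0.16 (R 4.3.3), quasi-likelihood test, Benjamini-Hochberg adjustment over 17587 genes, threshold 0.05. The fit has 1 residual degree of freedom, so standard errors (log2 fold change over the square root of F) rest on a spread shared between genes. The alternative likelihood ratio test instead used 1 common dispersion, 0.0359, for every gene. A 95% interval is 1.96 standard errors to either side. Normalized counts are scaled to the mean effective library size, and log2 ratios of single libraries use a prior count of 2. In counts simulated with the common dispersion, only genes averaging 50 counts or more were changed. Of these, 98% and 90% of genes raised and lowered by 2 log2 units were called, and 16% and 12% of those moved by 1. Only 50 genes were changed by each amount among 16535, whereas 1996 genes were called in the real fit. The adjusted p depends on how many genes differ, so these shares are not the chance of a call in the data. Members averaging fewer counts, such as Lamb2 and Itga2b, are not covered by these shares. The members, roles and related lists were chosen with earlier results of these data known. Named are members past the threshold or averaging 50 counts or more, the other members by role, and in each related list up to 4 called genes and the best counted gene. Vcl, Col4a6 and Sgcd, the cell type markers and the overlapping genes were named after their values were seen. The GC and span relations, and counts per kb of span, were chosen after seeing the data. Of the members, 15 overlap another gene with counts. Of the members, 1 is not reported singly and is left out of the figures, but it is in the counts and medians over members.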

Additional observations from a re-analysis of the deposited data

How the results depend on the processing

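Of the 7 calls, 6 held under RLE scaling (2 higher, 4 lower), 5 without a filter (1 and 4), 6 among genes averaging 50 counts or more (4 and 3, with Itga9 added and Itgb8 not tested) and 4 with the span trend removed (4 and 1, again with Itga9). Over all genes tested, RLE scaling called 5.49% higher and 5.9% lower. The shares were 2.39% and 3.04% without a filter, 15.5% and 15.7% at 50 counts or more, and 5.18% and 3.29% with span removed. Scaling to total counts, which shifted all genes by a median of -0.52, gave 0 members higher and 7 lower, against 1.94% and 17.1% of all genes. With it 9 members were above and 22 below IgG-IP in both Flag-IP libraries, for which no share over all genes is given. The likelihood ratio test gave 2 higher (Lamb2 and Itga2b) and 1 lower (Itgb8), against 6.43% and 4.27% of all genes. With the GC trend removed there were 0 higher and 1 lower, against 2.26% and 2.02% of all genes. Fitted over protein-coding genes averaging 20 counts or more, that trend gave the same counts, against 2.92% and 3.31% of those genes. With GC and span trends removed over those genes there were 0 and 0 (1 and 2 at an unadjusted p under 0.05). Of those genes 3.24% were then called higher and 2.22% lower. Both alternatives over protein-coding genes were chosen after seeing the data. DESeq2 1.42.0 called 0 members in either direction, against 0.745% of all genes higher and 0.824% lower. It gave an adjusted p for only 7 members, the lowest that of Lama2 (0.0633). The cause of these losses was not tested. The median over members was -0.41 with total counts, 0.044 without a filter, 0.15 at 50 counts or more, -0.14 with GC removed (-0.11 over protein-coding genes), -0.12 with both trends removed, and 0.24 with span removed. Without either Flag-IP replicate, which leaves values with no test, it was 0.16 to 0.19, and 31 of 37 members kept their sign in both.

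Signs that turned with the GC trend removed were those of Itga10 (-0.10), Itga2 (0.22), Itga4 (0.013), Lama5 (-0.26), Lamb1 (-0.29), Lamc1 (-0.42), Itga3 (-0.24), Itga7 (-0.79), Itgad (-0.18), Itgb7 (-0.75), Itgb5 (-0.56), Itgb6 (0.23) and Itga5 (-0.35). Over protein-coding genes they were the same genes except Itga10, at 0.27, 0.045, -0.15, -0.20, -0.33, -0.13, -0.67, -0.087, -0.64, -0.44, 0.28 and -0.24. With both trends removed they were all 13 genes, at -0.20, 0.32, 0.078, -0.16, -0.18, -0.26, -0.24, -0.84, -0.058, -0.85, -0.37, 0.35 and -0.42. With total counts they were Itga10 (-0.093), Itga9 (-0.014), Lamb1 (-0.41), Lamc1 (-0.48), Itga6 (-0.43), Itga7 (-0.51), Itgad (-0.24), Itgax (-0.10), Itgb7 (-0.46), Itgb3 (-0.063), Itgb5 (-0.32) and Itga5 (-0.11). With span removed they were Lama3 (0.15), Itga7 (-0.072), Itgb7 (-0.17) and Itgb6 (0.043), and without a filter Lamc1 (-0.029) and Itga7 (-0.046). Of these only Lama5 had been called. Prior counts of 0.5 and 10 left 19 members above and 12 below. No paired analysis was possible because the labels do not tie libraries to animals and there is a single IgG-IP library.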

Other observations

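The genes with integrin-like symbols that the choice of members left out did not pass edgeR's test. Itgb3bp, which encodes a centromere protein and not an adhesion receptor, had 94, 70 and 149 counts (-0.72 on the log2 scale, edgeR adjusted p = 0.0642). Itgbl1, a secreted integrin-like protein, had 201, 168 and 271 counts (-0.42 on the log2 scale). Itgb1bp1, which binds the tail of the Itgb1 chain, had 42, 42 and 29 counts, and Itgb2l had 14, 20 and 10. Transcript GC was 43.3% for Itgb3bp, 41.3% for Itgbl1, 46.9% for Itgb1bp1 and 53.1% for Itgb2l.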
